A study of Mus musculus and Homo sapiens with 14 samples.

Results

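The proteasome is the large protease that degrades proteins tagged with ubiquitin. Its barrel-shaped core stacks alpha rings, which gate the entry, on beta rings, which hold the catalytic sites. A regulatory particle sits on the core, with a base of ATPases that unfold the substrate and a lid that takes off its ubiquitin. In blood cells the constitutive catalytic subunits Psmb5, Psmb6 and Psmb7 can be replaced by the immunoproteasome subunits Psmb8, Psmb9 and Psmb10, which change the peptides cut for display on MHC class I. Dedicated chaperones build core and base, and activators such as the PA28 proteins bind the core in place of the regulatory particle.

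The genes described here are every row whose symbol begins with Psma, Psmb, Psmc, Psmd, Psme, Psmf or Psmg and a digit, in either letter case. There are 50 such genes among 20682 in each mouse table and 49 among 19166 in the human table. Human PSMB8 and PSMB9 are not used here, which leaves 47 human genes. Psmc3ip meets the naming rule but encodes a recombination partner protein and no proteasome component, so it is given apart wherever it matters. Psma8, an alpha subunit of the testis, was 0 in all mouse libraries, and Psmb11, the thymus catalytic subunit, had 0 to 4.86 normalized units, so 48 mouse genes reached the minimum mean of 10 set for testing. In the human table PSMA8 and PSMB11 were 0 in every library and 45 genes were tested.

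Poly(A) RNA was sequenced from acute myeloid leukemia cells in 14 libraries, 2 for each of 7 groups. RN2c cells, a mouse leukemia line with an MLL-AF9 fusion, mutant Nras and added Cas9, were taken on day 2 after lentiviral infection with guide RNAs against Sik3 (guides e1 and e3), a salt-inducible kinase, against Mef2c (guides 1 and 2), a transcription factor, or against the Rosa26 locus as the control (libraries 1 and 2). RN2 cells, labelled empty, were treated for 2 h with 350 nM YKL-05-099, an inhibitor of salt-inducible kinases, or 0.1% DMSO. MOLM-13 cells, a human MLL-AF9 leukemia line, here with an empty vector, received 250 nM YKL-05-099 or 0.1% DMSO for 2 h. The knockout cells are infected populations of 1 line, in which cells with uncut alleles may remain.

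The libraries held 13961461 to 24275290 reads in genes. Values are the authors' DESeq2-normalized values, scaled within each table, so the sgRosa26 libraries, whose reads are the same in both RN2c tables, carry slightly different values in each. Sik3 had 1219 and 1169 normalized units with guides e1 and e3 and 1939 and 1878 in sgRosa26 cells, and Mef2c had 3892 and 4021 with guides 1 and 2 and 8395 and 8369 in sgRosa26 cells. Each target's transcript was thus lower in its own knockout libraries than in both controls. A p-value here measures the spread between the libraries only. The 2 sgSik3 libraries carry different guides, as do the 2 sgMef2c libraries, so their spread includes that between guides. Whether the 2 libraries of each other group are separate cultures is not in the labels, so their spread may be technical. A gene was called higher or lower when limma on log2(value + 1) gave an adjusted p under 0.05 over all genes tested, and fold changes are on that scale. The 10 myeloid leukemia markers summed to 25087 normalized units or more in every library, while the T cell, B cell and erythroid lists each summed to at most 41.9. Other lists were not near 0. In sgRosa26 cells of the sgSik3 table the endothelial list summed to 6837 and 6993 units, of which Pecam1 gave 6829 and 6983. There the mast cell list summed to 813 and 1793 units and the fibroblast list to 580 and 567. The dendritic cell list summed to 34.8 and 21.9 units there, but to 6994 and 8207 in MOLM-13 cells with DMSO.

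Stretches of promoter are shown for the catalytic genes Psmb5 and Psmb6, because they hold the antioxidant response core, TGACNNNGC, to which the factor that raises proteasome genes when the proteasome is blocked (NFE2L1) is known to bind. The capitals mark that core. The sequences are RefSeq's for the mouse build GRCm38.p6, printed 5′ to 3′ on the gene's strand, and lie within 120 bases before the annotated start.
Psmb5, chr14:54618023-54618115, minus strand: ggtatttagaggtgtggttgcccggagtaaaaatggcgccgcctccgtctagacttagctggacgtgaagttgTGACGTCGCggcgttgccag
Psmb6, chr11:70525237-70525356, plus strand: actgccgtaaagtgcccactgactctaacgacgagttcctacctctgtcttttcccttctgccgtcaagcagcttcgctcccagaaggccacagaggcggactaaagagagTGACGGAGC
In the 250 bases before the start, searched on both strands, the antioxidant response core was found in 5 of 41 proteasome genes with a promoter entry (12.2%) and in 11.5% of 27025 genes. The MEF2 motif was found in 0 of the 41 and in 1.99% of all genes, which says only that these letters are not in this window. The interferon response core, GAAA and GAAA set 2 bases apart, was in 3 of the 41 (7.32%, against 3.46% of all genes) and the CCAAT box in 14 (34.1%, against 37.5%). A match in letters is not a binding site.

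Per kilobase of exon, members ranged widely in sgRosa26 cells. Psma6, an alpha ring subunit, stood highest with 4527 and 4322 normalized units per kilobase, and Psmb5 followed with 3948 and 4031. The immunoproteasome gene Psmb8 had 1253 and 1178 units per kilobase, close to the constitutive Psmb6 (1260 and 1256) and Psmb7 (1112 and 1054), while Psmb10 had 573 and 589 and Psmb9 had 237 and 215. The base chaperone gene Psmd9 was the lowest of the 48 tested members, at 107.7 and 117 units per kilobase. The length used counts every annotated exon of a gene (899 bases for Psmb5, 1872 for Psmb6, 3381 for Psmb8, 7248 for Psmd9). The order per kilobase therefore depends on the annotation. Before division by length, Psmb8 had 4236 and 3983 units and stood above Psmb6, with 2359 and 2350. The mouse genes of the catalytic pairs lie at chr17:34197721-34201454 (Psmb8, plus strand), chr17:34181987-34187764 (Psmb9, minus strand), chr8:105935735-105938444 (Psmb10, minus strand), chr14:54614119-54618022 (Psmb5, minus strand), chr11:70525367-70527858 (Psmb6, plus strand) and chr2:38588036-38644087 (Psmb7, minus strand) in GRCm38. The RN2c controls thus express immunoproteasome genes beside the constitutive ones. Exons of 15 of the 50 mouse members overlap another gene. Among the catalytic genes, Psmb8 overlaps Gm20496 over 498 bases, Psmb7 overlaps Nek6 over 405 and Psmb9 overlaps Tap1 over 212. The library kit does not mark strand, so reads in those stretches cannot be assigned to 1 gene. Psme2b, a near copy of Psme2, and Psmb5, Psma5, Psmb6 and Psmb7, which have annotated pseudogenes, may likewise share reads.

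Sik3 knockout lowered transcripts of most of the proteasome. Of 48 members tested, 33 were lower in sgSik3 cells and 0 were higher (68.8% lower), where 23.9% of all 10934 genes were lower and 23.9% higher (47.8% in either direction). The median log2 fold change of the members was -0.19, against -0.00 over all genes. The median size of a change over all genes, without its sign, was 0.18, so changes of this size were usual in these cells. The direction was shared, with 43 of 48 members below 0, against 5482 of 10934 genes. Summed over 49 proteasome components, the normalized value was 131876 and 128982 in sgSik3 libraries e1 and e3 and 148838 and 146555 in sgRosa26 libraries, a difference of the means of -11.7%. In bulk RNA, less RNA per cell and fewer cells of a type cannot be told apart. With only guide e3 kept, 45 of 47 tested components had a fold change below 0, and with only e1 kept 41 of 47 did, so each guide gave the direction alone.

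**Figure D1:**
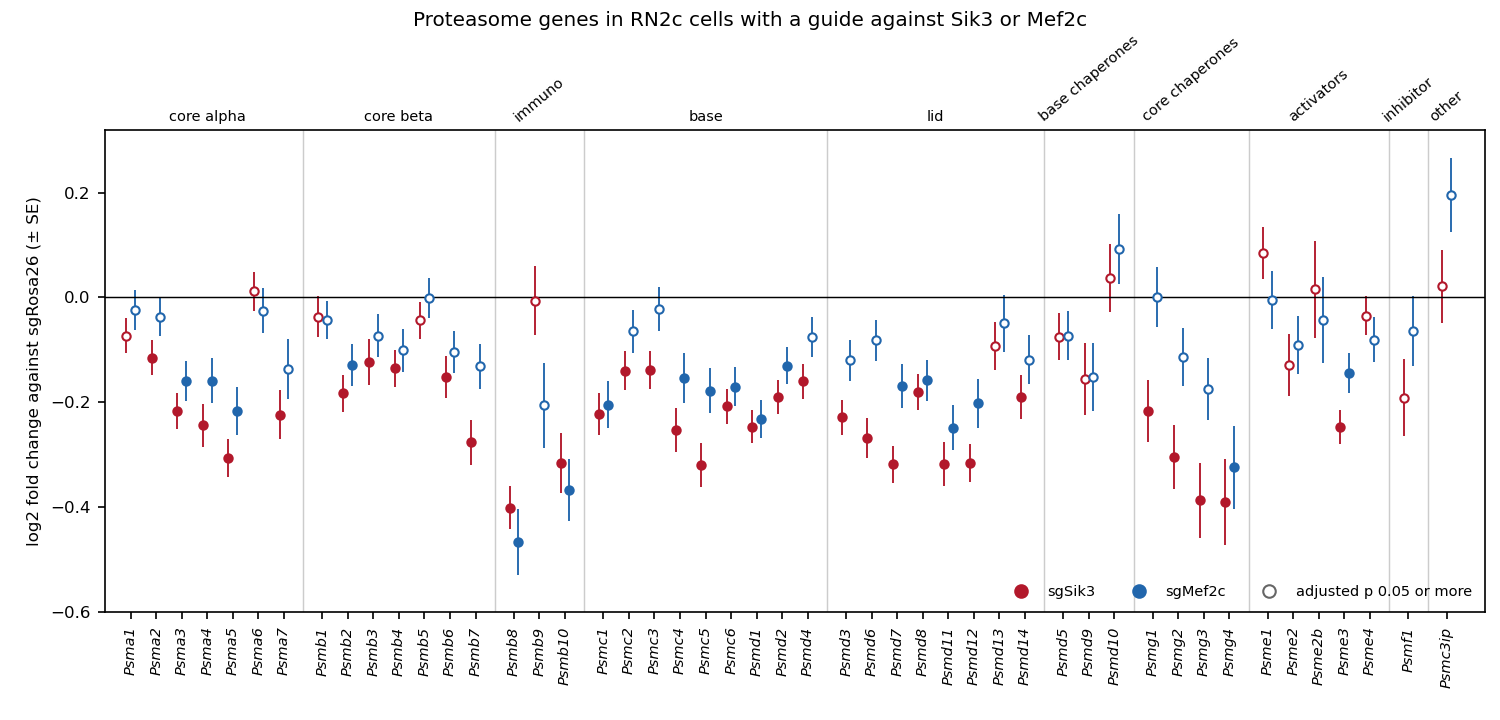
Log2 fold change (± SE, limma) of each of 48 tested genes in sgSik3 cells (red) and sgMef2c cells (blue), each against the same 2 sgRosa26 libraries, ordered by role along the horizontal axis. Filled points have an adjusted p under 0.05, and all filled points lie below 0.

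The fall ran through the core and the regulatory particle. In the alpha ring 5 of 7 tested genes were lower (median -0.22), Psma1 and Psma6 being the ones that were not called. In the constitutive beta ring 5 of 7 were lower (median -0.14), but without guide e3 only 2 of these 7 were called. All 9 base genes were lower (median -0.21), with 7 to 9 called when any library was left out, and 7 of 8 lid genes were lower (median -0.25), Psmd13 being the exception. All 4 core assembly chaperone genes were lower and had the lowest median of any role, -0.35. The 3 base assembly chaperone genes, Psmd5, Psmd9 and Psmd10, were not called (median -0.08), nor was the inhibitor gene Psmf1 (-0.19, limma adjusted p = 0.059).

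Psmb8, the chymotrypsin-like immunoproteasome subunit, had the lowest fold change of all members. It had 3158 and 3063 normalized units in sgSik3 cells and 4236 and 3983 in sgRosa26 cells (log2 fold change -0.40 ± 0.04 SE, limma adjusted p = 5.8e-05). Both sgSik3 libraries lay well below both controls. Psmb10, the trypsin-like immunoproteasome subunit, had 768 and 825 units in sgSik3 cells and 977 and 1004 in sgRosa26 cells (-0.32 ± 0.06, limma adjusted p = 0.0018). Its groups did not overlap either. Psmb9, which takes the place of the caspase-like subunit, had 849 and 795 units in sgSik3 cells and 866 and 786 in sgRosa26 cells. These values overlapped (-0.01, limma adjusted p = 0.95), so of the 3 immunoproteasome genes Psmb8 and Psmb10 were lower and Psmb9 was not called.

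Among their constitutive counterparts the calls differed in another way. Psmb5 had 3538 and 3420 units in sgSik3 cells and 3549 and 3624 in sgRosa26 cells, a gap within the spread (-0.04 ± 0.04, limma adjusted p = 0.34). Psmb7, the constitutive trypsin-like subunit, had 3149 and 2969 units in sgSik3 cells and 3804 and 3606 in sgRosa26 cells (-0.28 ± 0.04, limma adjusted p = 0.00075), with no overlap. Psmb6, the caspase-like subunit, had 2175 and 2065 units in sgSik3 cells and 2359 and 2350 in sgRosa26 cells (-0.15 ± 0.04, limma adjusted p = 0.013). The sgSik3 libraries were the lower ones, but with library e3 left out the adjusted p of Psmb6 was 0.13.

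**Figure D2:**
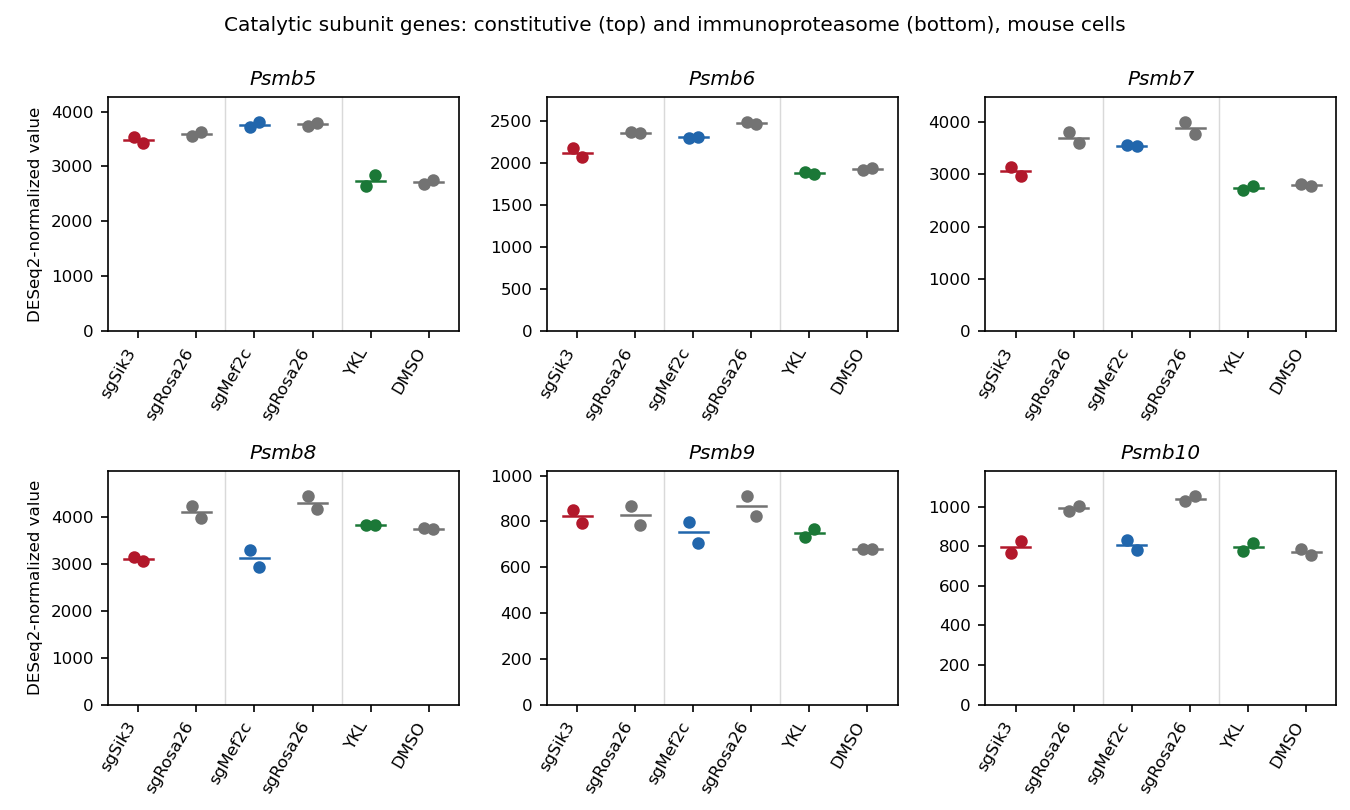
Normalized values of the 3 constitutive (top) and 3 immunoproteasome (bottom) catalytic genes in the mouse libraries, 1 point a library with a bar at the mean, each table on its own scale and separated by vertical lines. Psmb8 and Psmb10 lie lower in both knockouts than in sgRosa26 cells, while YKL-05-099 and DMSO libraries of RN2 lie close together for these 2 genes.

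Genes of assembly and of the regulatory particle made up the rest of the deepest falls. Psmg3, a chaperone of early core assembly, had 576 and 515 units in sgSik3 cells and 723 and 702 in sgRosa26 cells (-0.39 ± 0.07 SE, limma adjusted p = 0.0020). Its partner Psmg4 had 288 and 299 units in sgSik3 cells and 393 and 377 in sgRosa26 cells (-0.39 ± 0.08, limma adjusted p = 0.0039). Both were low in both sgSik3 libraries and called in every fit that left out a library. Psmd7, the lid partner of the deubiquitinase, had 3127 and 3021 units in sgSik3 cells and 3838 and 3828 in sgRosa26 cells (-0.32 ± 0.04, limma adjusted p = 0.00010). Psmc5, an ATPase of the base, had 2443 and 2291 units in sgSik3 cells and 2976 and 2929 in sgRosa26 cells (-0.32 ± 0.04, limma adjusted p = 0.00027). Psmd11, a scaffold subunit of the lid, had 1516 and 1575 units in sgSik3 cells and 1907 and 1947 in sgRosa26 cells (-0.32 ± 0.04, limma adjusted p = 0.00029). In these genes the controls differed from each other by far less than from the knockout libraries.

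The activators did not move as a class, with 1 of 5 genes called. Psme3, the nuclear PA28 gamma activator, had 4764 and 4829 units in sgSik3 cells and 5752 and 5628 in sgRosa26 cells (-0.25 ± 0.03, limma adjusted p = 0.00028). Psme1, the PA28 alpha subunit, had 1975 and 1909 units in sgSik3 cells and 1911 and 1756 in sgRosa26 cells, which overlap (0.08, limma adjusted p = 0.20). Psme2, the PA28 beta subunit, had 1350 and 1228 units in sgSik3 cells and 1457 and 1360 in sgRosa26 cells (-0.13, limma adjusted p = 0.10). Single controls decided these last calls: without sgRosa26 library 1 Psme1 was called higher (limma adjusted p = 0.014), and without library 2 Psme2 was called lower (0.0075). Psmc3ip, which is no component, did not move (0.02).

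In sgMef2c cells most members also had fold changes below 0, and most of the calls were lost in at least 1 fit that left out a library. Of 48 members, 18 were lower in sgMef2c cells and 0 were higher (37.5% lower), where 15.1% of all 10956 genes were lower and 16.3% higher (31.4% in either direction). The median log2 fold change was -0.12, against 0.00 over all genes, and 45 of the 48 members had a fold change below 0, against 5476 of 10956 genes. The median size of a change over all genes, without its sign, was 0.15, so changes of the members' size were usual here too. The summed value of the 49 components was 143806 and 140947 in sgMef2c libraries 1 and 2 and 156454 and 153654 in sgRosa26 libraries, a difference of the means of -8.18%. The count of calls was lower in each fit that left out a library. Such a fit keeps 1 library in a group, which weakens the test for any gene, and its share over all genes is not given here. The loss of calls is therefore not shown to be particular to these members. With only guide 1 kept the median log2 fold change of the 47 tested components was -0.11, and with only guide 2 kept it was -0.14. The count of calls was 7 by DESeq2 on the recovered reads and 18 by edgeR. Psmb8, Psmb10, Psmd1 and Psmd11 were called in all fits that left out a library.

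By role, the calls were 3 of 7 alpha ring genes, 1 of 7 constitutive beta ring genes (Psmb2), 6 of 9 base genes and 4 of 8 lid genes. Assembly chaperones gave 1 of 4 for the core (Psmg4) and 0 of 3 for the base, and activators 1 of 5. Without sgRosa26 library 1 no alpha or beta ring gene and 1 gene each of base and lid remained called. The immunoproteasome class kept 2 of its 3 genes in that fit, and it had the lowest median of any role, -0.37.

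In sgMef2c cells Psmb8 had 3310 and 2943 units, and sgRosa26 cells had 4453 and 4176 (log2 fold change -0.47 ± 0.06 SE, limma adjusted p = 0.0023). Psmb10 had 834 and 780 units in sgMef2c cells and 1027 and 1053 in sgRosa26 cells (-0.37 ± 0.06, limma adjusted p = 0.0046). Both genes were low in both sgMef2c libraries, with guide 2 the lower. Psmb9 had 798 and 707 units in sgMef2c cells and 911 and 824 in sgRosa26 cells, which did not overlap but missed the threshold (-0.21 ± 0.08, limma adjusted p = 0.098), and it was called when guide 1 was left out (0.044).

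The constitutive catalytic genes were not called. Psmb5 had 3720 and 3806 units in sgMef2c cells and 3731 and 3800 in sgRosa26 cells, almost the same values (0.00 ± 0.04 on the log2 scale, limma adjusted p = 0.99). Psmb6 had 2298 and 2299 units in sgMef2c cells and 2480 and 2464 in sgRosa26 cells (-0.10, limma adjusted p = 0.087). Psmb7 had 3559 and 3539 units in sgMef2c cells and 3999 and 3781 in sgRosa26 cells (-0.13, limma adjusted p = 0.055). The last 2 lay below both controls without passing the test.

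Further falls were in the regulatory particle and the alpha ring. Psmd1, the large scaffold of the base, had 6237 and 6145 units in sgMef2c cells and 7257 and 7290 in sgRosa26 cells (-0.23 ± 0.04 SE, limma adjusted p = 0.0039). Psmd11 had 1712 and 1692 units in sgMef2c cells and 2004 and 2041 in sgRosa26 cells (-0.25 ± 0.04, limma adjusted p = 0.0057). In both genes the libraries of a group lay close together and the groups far apart. Psma5, an alpha ring subunit, had 3079 and 2884 units in sgMef2c cells and 3486 and 3442 in sgRosa26 cells (-0.22, limma adjusted p = 0.012), and it was not called without sgRosa26 library 1 (0.060) or without guide 2 (0.053). Psmg4 had 323 and 322 units in sgMef2c cells and 413 and 395 in sgRosa26 cells (-0.32 ± 0.08, limma adjusted p = 0.021), and leaving out any library ended the call (0.056 to 0.095). Psme3 had 5460 and 5347 units in sgMef2c cells and 6046 and 5901 in sgRosa26 cells (-0.14, limma adjusted p = 0.026), a call that held only without guide 1. Psme1 had 1881 and 1955 units in sgMef2c cells and 2009 and 1841 in sgRosa26 cells (0.00), and Psme2 had 1361 and 1415 in sgMef2c cells and 1532 and 1426 in sgRosa26 cells (-0.09, limma adjusted p = 0.25). Neither PA28 alpha nor beta was called.

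Both knockouts were set against the same sgRosa26 libraries, so a low or high control moves both results. The knockouts were therefore also compared directly, on reads recovered from the deposited values of the 6 RN2c libraries, by edgeR's quasi-likelihood test. Of 48 members, 1 was higher in sgMef2c than in sgSik3 cells and 0 were lower, where 3.7% of all 10954 genes were higher and 5.74% lower (9.44% in either direction). That gene was Psmd6, a lid subunit, with 116 and 112 RPM (reads scaled to a common library total) in sgMef2c libraries 1 and 2 and 102 and 99.0 in sgSik3 libraries e1 and e3 (log2 fold change 0.18, edgeR adjusted p = 0.022). Its groups did not overlap, but it was not called by DESeq2 (adjusted p = 0.082) or without sgSik3 e1 (edgeR adjusted p = 0.13), sgSik3 e3 (0.20) or sgMef2c guide 1 (0.076). The members' median difference was 0.05, against 0.00 over all genes. An unadjusted edgeR p under 0.05, in either direction, was found for 13 of 48 members and for 2837 of 10954 genes, which are similar shares. Of the 13 members, 12 were higher in sgMef2c cells, Psmc3ip and the core chaperones Psmg1, Psmg2 and Psmg3 among them. Psmg1 had 40.7 and 42.5 RPM in sgMef2c cells and 34.4 and 37.3 in sgSik3 cells (0.21, edgeR adjusted p = 0.058). Psmd7 had 169 and 157 RPM in sgMef2c cells and 149 and 145 in sgSik3 cells (0.14, edgeR adjusted p = 0.060). Psmb9 went the other way, with 36.7 and 31.8 RPM in sgMef2c cells and 40.5 and 38.2 in sgSik3 cells (-0.20, edgeR adjusted p = 0.13). For the other 47 members a difference between the knockouts was not called, which with 2 libraries a group does not show that the knockouts act alike.

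The balance between immunoproteasome and constitutive transcripts was described by the ratio of their reads within each library, which needs no scaling and was not tested. Psmb8 had 0.893 and 0.896 reads per Psmb5 read in sgSik3 cells, 0.890 and 0.773 in sgMef2c cells, and 1.19 and 1.10 in sgRosa26 cells. All 4 knockout libraries lay below both controls. For Psmb10 and Psmb7 the ratio was 0.244 and 0.278 in sgSik3 cells, 0.234 and 0.220 in sgMef2c cells, and 0.257 and 0.278 in sgRosa26 cells, so it was lower in sgMef2c cells and overlapped the controls in sgSik3 cells, where both genes fell. For Psmb9 and Psmb6 it was 0.391 and 0.385 in sgSik3 cells, 0.347 and 0.307 in sgMef2c cells, and 0.367 and 0.334 in sgRosa26 cells. The sgSik3 libraries were the highest here, and the sgMef2c libraries overlapped the controls.

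**Figure D3:**
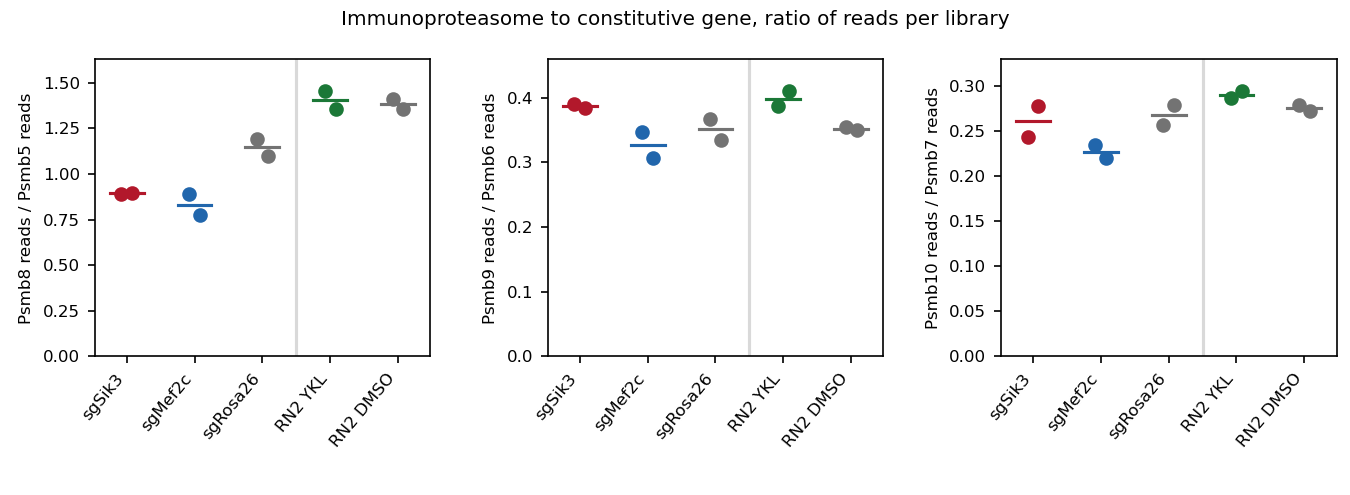
Reads of an immunoproteasome gene divided by reads of its constitutive counterpart, 1 point a library and a bar at the mean of 2, with RN2c groups left of the vertical line and RN2 groups right of it. The Psmb8 to Psmb5 ratio is 0.773 to 0.896 in the 4 knockout libraries and 1.10 to 1.19 in sgRosa26 cells.

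Interferon-related genes, which in other cells move with the immunoproteasome genes, did not move one way. Of 13 tested in sgSik3 cells 5 were lower and 3 higher (median 0.12), where 23.9% of all genes were lower and 23.9% higher. In sgMef2c cells 4 of 13 were lower and 1 higher (median -0.25), where 15.1% of all genes were lower and 16.3% higher. Nlrc5, an activator of MHC class I genes, had 310 and 380 units in sgSik3 cells and 603 and 598 in sgRosa26 cells (-0.80, limma adjusted p = 0.00017). In sgMef2c cells Nlrc5 had 278 and 176 units, against 634 and 627 in sgRosa26 cells (-1.51, limma adjusted p = 0.0019). Mx1, an antiviral gene of low level, was lower in sgSik3 (-1.27) and sgMef2c cells (-1.54). Both genes named here fell, which does not stand for the list. The summed value of the list was 6284 and 6413 units in sgSik3 cells and 5728 and 5729 in sgRosa26 cells. In sgMef2c cells it was 6052 and 6251 units, against 6021 and 6007 in sgRosa26 cells.

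Other genes of the ubiquitin and proteasome pathway were counted from a list of 29 symbols, 28 of them found and tested. In sgSik3 cells 12 of the 28 were lower and 2 higher, where 23.9% of all genes were lower and 23.9% higher. In sgMef2c cells 8 were lower and 3 higher, where 15.1% of all genes were lower and 16.3% higher. Usp14, the deubiquitinase bound to the base, had 3993 and 3935 units in sgSik3 cells and 5125 and 5062 in sgRosa26 cells (-0.36, limma adjusted p = 3.0e-05), and 4627 and 4476 in sgMef2c cells and 5387 and 5307 in sgRosa26 cells (-0.23, limma adjusted p = 0.0050). Rad23b and Ubqln4, shuttles that carry ubiquitinated proteins, were also lower, with log2 fold changes of -0.33 and -0.39 in sgSik3 cells and -0.22 and -0.20 in sgMef2c cells. The sgMef2c call of Ubqln4 was lost without either control or without guide 2 (limma adjusted p 0.065 to 0.089). Shfm1, the small lid subunit Sem1 that the naming rule does not reach, moved against the other lid genes. It had 6750 and 6780 units in sgSik3 cells and 5894 and 5615 in sgRosa26 cells (0.23, limma adjusted p = 0.00059), and 6935 and 7343 in sgMef2c cells and 6196 and 5887 in sgRosa26 cells (0.24, limma adjusted p = 0.0087). Its sgMef2c value missed the threshold without sgRosa26 library 2 (0.055). Nfe2l1, the factor that raises proteasome genes when the proteasome is blocked, had a log2 fold change of -0.15 in each knockout. That call was lost in sgSik3 cells without e3 (0.070), and in sgMef2c cells without either control or without guide 2 (0.080 to 0.11).

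Markers of mature granulocytes moved with both knockouts. Of 10, all were higher in sgSik3 cells, with a summed value of 122007 and 111892 units against 21721 and 23741 in sgRosa26 cells. In sgMef2c cells 9 of 10 were higher, with a sum of 104667 and 207427 units against 22832 and 24891 in sgRosa26 cells. Of 6 monocyte and macrophage markers 4 were lower in each knockout, and 1 was higher in sgSik3 cells. Over all genes 23.9% were lower and 23.9% higher in sgSik3 cells, and 15.1% and 16.3% in sgMef2c cells. Psmb8 and Psmb10 were lowest in sgMef2c guide 2, the library with the highest granulocyte sum in that table. In sgSik3 cells the 2 genes went different ways. Guide e1, with the higher granulocyte sum, had the higher Psmb8 (3158, against 3063 with e3) and the lower Psmb10 (768, against 825). The part of the marker changes in the result for proteasome genes was not tested.

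The inhibitor given for 2 h produced no called change in a proteasome gene of RN2 cells. Of 48 members, 0 were higher or lower by limma, edgeR or DESeq2, while 0.317% of all 10732 genes were called by limma, 0.28% lower and 0.0373% higher. An unadjusted limma p under 0.05 was found for 0 of 48 members and for 786 of 10732 genes. Fold changes ran from -0.15 to 0.14 on the log2 scale with a median of -0.01. The summed value of the components was 113378 and 114517 units with YKL-05-099 and 116022 and 114157 with DMSO, overlapping sets with a difference of the means of -0.992%.

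The RN2 members of lowest p were Psmb9, Psmd9 and Psmc5, none past the test. Psmb9 had 730 and 765 units with YKL-05-099 and 680 and 678 with DMSO (0.14 ± 0.07 SE, limma adjusted p = 0.71). Psmd9, a chaperone of base assembly, had 604 and 589 units with YKL-05-099 and 716 and 612 with DMSO (-0.15 ± 0.08, limma adjusted p = 0.77). Psmc5 had 2310 and 2318 units with YKL-05-099 and 2533 and 2378 with DMSO (-0.08 ± 0.05, limma adjusted p = 0.77). For Psmd9 and Psmc5, DMSO library 1 set most of the gap.

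The catalytic genes of RN2 lay close together. Psmb8 had 3842 and 3846 units with YKL-05-099 and 3778 and 3741 with DMSO (0.03 ± 0.04). Psmb10 had 777 and 816 units with YKL-05-099 and 786 and 758 with DMSO (0.04 ± 0.07), which overlap. Psmb5 had 2642 and 2836 units with YKL-05-099 and 2672 and 2755 with DMSO (0.01 ± 0.05), also overlapping. Psmb6 and Psmb7 had fold changes of -0.04 and -0.03 on the log2 scale. Among activators, Psme1 had 1527 and 1542 units with YKL-05-099 and 1513 and 1557 with DMSO, Psme2 had 962 and 889 against 999 and 991, and Psme3 had 4180 and 4274 against 4330 and 4372, none past the test. The Psmb8 to Psmb5 read ratio was 1.45 and 1.36 with YKL-05-099 and 1.41 and 1.36 with DMSO. The Psmb9 to Psmb6 ratio was 0.387 and 0.410 with YKL-05-099, above the 0.355 and 0.349 with DMSO.

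**Figure D4:**
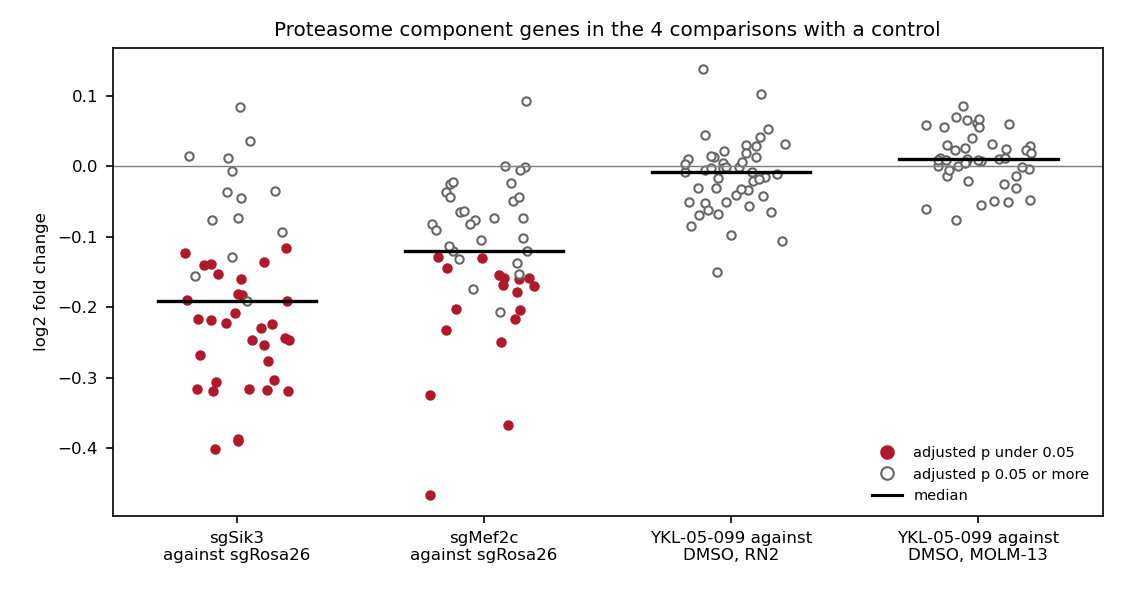
Log2 fold changes of the tested proteasome components (47 genes in mouse, 44 in human) in the 4 comparisons with a control, 1 point a gene, with red points for an adjusted p under 0.05 and a bar at the median. The points of both knockouts lie mostly below 0, with medians of -0.19 and -0.12, and those of both inhibitor comparisons lie around 0.

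MOLM-13 cells gave the same count. Of 45 members, 0 were called by limma, edgeR or DESeq2, where 0% of all 11361 genes were called by limma. An unadjusted limma p under 0.05 was found for 0 of 45 members and for 144 of 11361 genes. The median was 0.01, and the summed value was 147298 and 145305 units with YKL-05-099 and 142600 and 148193 with DMSO (0.622% higher in the mean, overlapping). The lowest p-values belonged to PSMC3IP, PSMA6 and PSMD10. PSMA6 had 4273 and 4172 units with YKL-05-099 and 3923 and 4119 with DMSO (0.07 ± 0.09 SE, limma adjusted p = 1.0). PSMD10, a chaperone of base assembly, had 956 and 942 units with YKL-05-099 and 853 and 936 with DMSO (0.09 ± 0.10). PSMC3IP had 212 and 282 units with YKL-05-099 and 258 and 303 with DMSO (-0.19 ± 0.18). None of the 3 differed beyond the spread.

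Of the MOLM-13 catalytic genes, PSMB5 had 1972 and 2371 units with YKL-05-099 and 2080 and 2498 with DMSO (-0.08 ± 0.13), and PSMB10 had 2459 and 2916 units with YKL-05-099 and 2523 and 2940 with DMSO (-0.02 ± 0.12). In both, library 2 was above library 1 in each treatment, by more than the treatments differed. PSMB6 had 2031 and 2202 units with YKL-05-099 and 1997 and 2284 with DMSO, and PSMB7 had 3529 and 3542 units with YKL-05-099 and 3357 and 3678 with DMSO. These values overlapped. The PSMB10 to PSMB7 read ratio was 0.697 and 0.823 with YKL-05-099 and 0.752 and 0.799 with DMSO. PSME1, PSME2 and PSME3 had fold changes of 0.06, 0.01 and -0.05 on the log2 scale, with standard errors of 0.11, 0.11 and 0.09. The wider errors in MOLM-13 than in RN2 mean that changes of the size seen in the knockouts could not be told from the spread for every member here. The inhibitor was measured after 2 h and the knockouts on day 2, so the values stand side by side and were not compared.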

How the data were processed

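The members and lists were chosen with earlier results of these data known. The deposited files hold signal values, gene counts that the authors divided by DESeq2 size factors within each table. The tools HISAT2, featureCounts and DESeq2 and the builds hg19 and mm10 come from the submitters' processing notes, and their versions were not given in the sources. Whole reads were recovered for 100% of values (largest deviation 6.1e-10 reads). Within each table, genes with a mean of at least 10 were tested with limma 3.58.1 (R 4.3.3, with a mean-variance trend) on log2(value + 1), two-sided, with Benjamini-Hochberg adjustment over all genes. The sgMef2c and sgSik3 libraries were compared with edgeR 4.0.16 on recovered reads of 6 libraries with TMM factors. The fits were tested on simulated data. Named with values were the 6 catalytic genes, Psme1 to Psme3, the 6 largest falls and rises among genes past the test, and, where fewer than 3 passed, the 3 of lowest p. Genes named to complete a count of 5 or fewer were chosen after their values were seen. Lengths are exon unions in GENCODE M21 (GRCm38), which held all 50 mouse members. Alternatives were a pseudocount of 5, no low-value filter, no trend, TMM scaling, edgeR, DESeq2 1.42.0, a replicate block and leaving out each library. The MEF2 motif was searched with A or T at each central base. 1 gene of the interferon list is not reported here by name.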

Additional observations from a re-analysis of the deposited data

Results flagged for a closer look

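Psmd6, the lid subunit, was the only proteasome gene of 48 tested whose difference between the knockouts passed its test. Over all 10954 genes, 3.7% were called higher in sgMef2c than in sgSik3 cells and 5.74% lower. Psmd6 was higher in sgMef2c than in sgSik3 cells by a log2 value of 0.18 (edgeR adjusted p = 0.022), with 116 and 112 RPM in sgMef2c cells and 102 and 99.0 in sgSik3 cells. Against sgRosa26 cells it was called lower in sgSik3 cells (-0.27) and not in sgMef2c cells (-0.08, limma adjusted p = 0.16). Its difference between the knockouts was not called by DESeq2 or in some fits that left out a library.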

How the results depend on the processing

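For the 60 results on named genes, 593 of 622 values under alternatives stayed called or stayed not called, 20 lost the call and 9 gained it. No result called in either fit reversed its direction. A change of sign in a result called in neither fit was not counted, so the 593 may hold such changes. The sgSik3 count of 33 was 24 to 34 under the other settings and 26 to 36 with a library left out. The sgMef2c count of 18 was 5 with no mean-variance trend, 7 by DESeq2, 16 to 18 with the pseudocount, filter, TMM and edgeR alternatives, and 4 to 16 with a library left out. The direct count of 1 was 0 by DESeq2, 4 with no filter, 1 with median-of-ratios factors, and 0 to 2 with a library left out. Both inhibitor counts were 0 in every fit run. Over all genes, sgSik3 calls numbered 5226, against 3471 by DESeq2, and sgMef2c calls 3442, against 1628 with no trend and 2226 by DESeq2. With the replicate number as a block the counts of members were 23 for sgMef2c, 0 for RN2 and 0 for MOLM-13, and those of all genes 3905, 499 (34 without the block) and 290 (0 without it). The labels do not say that a number pairs libraries, and deviations of same-numbered libraries correlated at 0.525 in MOLM-13, 0.216 in RN2 and 0.051 in the sgMef2c table. No paired analysis was possible for sgSik3 or the direct test because guides e1 and e3 share no number with the controls and the direct test uses 6 libraries. Precision fell with the level of a gene: in the sgSik3 fit the standard error was 0.08 for Psmg4 and 0.03 for Psmd1 on the log2 scale. The cause of these differences between settings was not tested.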

Other observations

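In MOLM-13 most proteasome genes differed more between library numbers than between treatments. In 35 of 45 members the gap between libraries 1 and 2 had the same sign with YKL-05-099 and DMSO. In 29 of these the gap was larger in both treatments than the treatment difference, with 19 higher in library 2 and 10 lower. The same count over all genes was not made. Deviations of same-numbered MOLM-13 libraries correlated at 0.525 over all genes of at least the minimum mean, so the pattern is not shown to be particular to proteasome genes. PSME4, the PA200 activator, had 3579 and 2504 units with YKL-05-099 and 3320 and 2611 with DMSO, and so was lower in library 2 of both treatments. The lid gene PSMD11 had 3176 and 2492 units with YKL-05-099 and 3165 and 2676 with DMSO, the same order. PSMB5 and PSMB10 had the opposite order in both treatments.

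Psmb11, the thymus catalytic gene, was near 0 in every mouse group, with too few reads for a test. It had 4.86 and 2.18 units in sgSik3 cells, against 0.941 and 0 in sgRosa26 cells. In sgMef2c cells it had 2.69 and 3.23 units, against 0.989 and 0 in sgRosa26 cells. Values above 0 were not confined to the knockouts. RN2 cells had 2.10 and 1.0 units with DMSO and 1.94 and 0 with the inhibitor.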
